A study of Homo sapiens with 8 samples.

Results

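The centromere of chromosome 3 was described here through 841 ChIRP-seq peaks, out of 65588 peaks in both deposited lists of the series. Members were chosen by position alone: every listed peak on chromosome 3 whose start lay from 90000000 to 96999999 on build hs1, with 453 of the 32035 asynchronous peaks and 388 of the 33553 mitotic peaks. By start position they fall into 4 blocks. The short-arm-side block holds starts below 91600000, the dense block starts from 91600000 to 92799999, the small block starts from 92800000 to 94999999, and the long-arm-side block starts from 95000000. All block limits lie in stretches where neither list has a peak, so the division into blocks is not itself a result.

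The study used biotinylated antisense probes to pull α-satellite RNA and the DNA associated with it out of sonicated RPE1 cells, a human retinal pigment epithelial line that has been immortalised and is wild type in the labels. The asynchronous group and the mitotic group, labelled Meta, each had 1 library from an Odd and 1 from an Even probe set, which the authors merged into 1 peak list. The labels used here do not say how mitotic cells were obtained. The input and Scr libraries of each condition were not analysed here.

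α-Satellite DNA is the tandem repeat of human centromeres. Its monomers are arranged into higher-order repeats that follow each other head to tail in long, nearly uniform arrays, and on 1 such array per chromosome the kinetochore is built. Older, diverged α-satellite usually lies at the flanks. On chromosome 3 the array is known to be split by a block of another repeat family, human satellite 1, so that α-satellite lies on both sides of unrelated sequence. The RNA transcribed from α-satellite is known to stay close to the centromere that made it. No repeat annotation and no sequence of build hs1 were used here, so blocks are named by position and density and not by repeat class. For the same reason no stretch between the blocks could be assigned to the known split.

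With 1 merged list per condition there is no replicate error and no difference between conditions was tested. The exact 95% intervals given below cover only counting error and treat neighbouring peaks as independent. Sequencing depth is not known from the lists. An antisense probe can hybridise to the α-satellite repeat itself as well as to its RNA. The handling of reads with many possible positions in an array was not stated in the labels or headers. The part of either in the values below was not tested.

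Chromosome 3 gave few but long peaks. The window held 1.41% of the asynchronous peaks and 4.19% of the covered length of that list, and 1.16% of the mitotic peaks and 4.37% of that list's covered length. Covered length was 1.99 Mb in the asynchronous and 2.10 Mb in the mitotic list, a ratio of mitotic to asynchronous length of 1.06. The number of peaks went the other way, with a ratio of 0.857 (0.746 to 0.983). At a fold enrichment of at least 6 and −log10 q of at least 5, the short-arm-side block held 178 asynchronous and 174 mitotic peaks. The dense block then held 64 and 70, the small block 3 and 1 and the long-arm-side block 123 and 118. A ratio over the window at this limit was not computed. Outside the window, chromosome 3 carried only 7 asynchronous peaks with 1613 bp in all and 84 mitotic peaks with 19196 bp. The longest of the asynchronous ones was 297 bp and of the mitotic ones 466 bp.

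The 4 blocks were separated by 3 stretches without a listed peak in either list. The first, between the short-arm-side and the dense block, ran from 91480645 to 91711150, a length of 231 kb. The second, between the dense and the small block, ran from 92595750 to 92869527, a length of 274 kb. The third was by far the longest, with 2.96 Mb from 92903099 to 95863404, and it parted the small block from the long-arm-side block. The peaks thus lay in separate blocks. Whether any of these stretches is the known interruption of the array was not tested, because their repeat content was not examined.

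The edges of the blocks lay at nearly the same base in both lists. The first peak of the short-arm-side block started 25 bp apart, that of the dense block 50 bp apart, that of the small block 25 bp apart and that of the long-arm-side block 45 bp apart. The last peak of the short-arm-side block ended 196 bp apart, that of the dense block 79 bp and that of the small block 1 bp apart. The end of the long-arm-side block was the exception, where the lists ended 5076 bp apart, the asynchronous at 96497722 and the mitotic at 96492646.

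Calls that did not reach the deposited lists were counted in the stretches between the blocks as well. Peak names carry running numbers in genome order, so missing numbers between neighbouring peaks were taken as calls that the authors removed. No label or header states this. In the 2.96 Mb stretch 16 asynchronous and 35 mitotic numbers were missing, or 5.40 calls per Mb (3.09 to 8.78) and 11.8 calls per Mb (8.24 to 16.4). On the short arm, from the first listed peak of chromosome 3 to the window, all calls together came to 6.26 per Mb (5.75 to 6.80) in the asynchronous and 34.2 per Mb (33.0 to 35.4) in the mitotic list. On the long arm they came to 6.76 and 35.6 per Mb. In the mitotic list the 2.96 Mb stretch thus held fewer calls per Mb than either arm beyond counting error, while the asynchronous intervals overlapped. In the 231 kb stretch 7 missing asynchronous numbers gave 30.4 calls per Mb (12.2 to 62.6), above both arms beyond counting error, and 6 missing mitotic numbers gave 26.0 (9.54 to 56.6). The 274 kb stretch held 1 missing asynchronous number, or 3.65 calls per Mb (0.0925 to 20.4), and 7 missing mitotic numbers, or 25.6 (10.3 to 52.7). Apart from the asynchronous one of the 231 kb stretch, these intervals include the rates of both arms in the same list.

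Inside the blocks most removed calls belonged to the short-arm-side block. There the lists kept 249 of 513 asynchronous calls (48.5%, 44.1 to 53.0%) and 194 of 378 mitotic calls (51.3%, 46.2 to 56.5%). In the dense block they kept 72 of 93 (77.4%, 67.6 to 85.4%) and 74 of 94 (78.7%, 69.1 to 86.5%), and in the long-arm-side block 129 of 167 (77.2%, 70.1 to 83.4%) and 119 of 148 (80.4%, 73.1 to 86.5%). In the small block no number was missing in either list. On the short and the long arm, counted as above, the lists kept 2 of 561 and 3 of 611 asynchronous calls. For mitotic calls it was 45 of 3080 and 37 of 3669. The share kept over all calls of the series was not counted.

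The dense block, from 91711151 to 92595749, was an almost unbroken stretch of recovered DNA in both conditions. Its 72 asynchronous peaks covered 848 kb and its 74 mitotic peaks 843 kb, a ratio of 0.995, and 830474 bp were shared. The shared part was 97.9% of what the asynchronous list covered and 98.5% of what the mitotic list covered. Counting any overlap of 1 bp or more, 68 of 72 asynchronous peaks met a mitotic peak (94.4%, 86.4 to 98.5%), where 81.9% did over the whole asynchronous list. In the other direction 72 of 74 mitotic peaks met an asynchronous one (97.3%, 90.6 to 99.7%), where 79.2% did over the whole mitotic list. Overlap rises with coverage by itself, and the part of coverage in these shares was not tested.

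**Figure D1:**
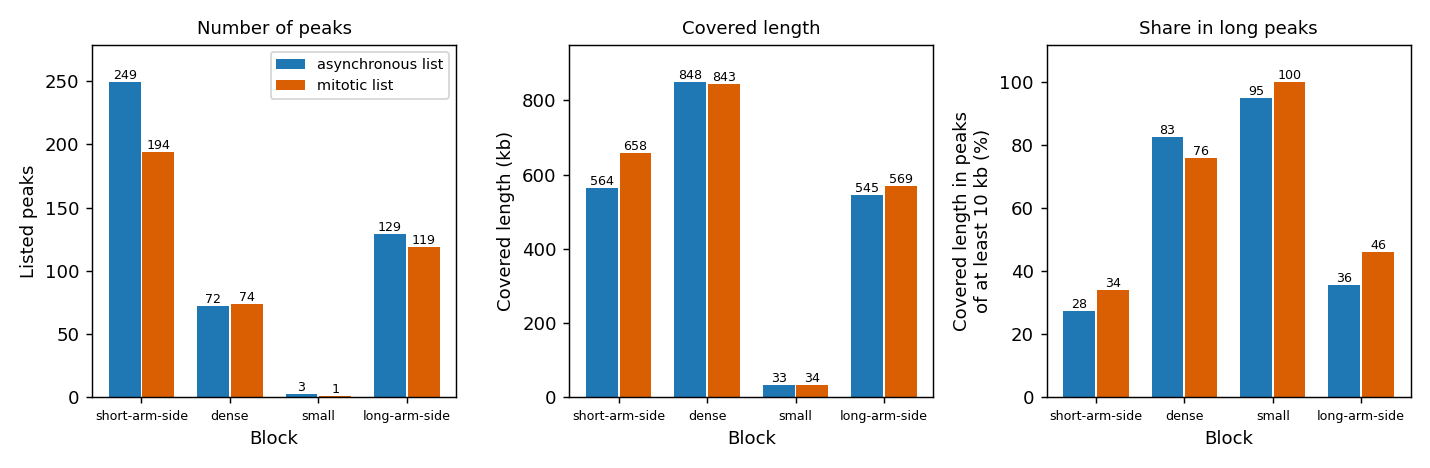
Number of listed peaks (left), covered length in kb (middle) and share of covered length that lies in peaks of at least 10 kb (right) for each of the 4 blocks, with 1 bar per list and the value above it. The short-arm-side block has fewer peaks and more covered length in the mitotic list, while the dense block has nearly equal values of both.

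Peaks of the dense block were long. The median width was 5643 bp in the asynchronous list, longer than 96.8% of all peaks of that list, and 5791 bp in the mitotic list, longer than 96.9% of that list. Peaks of at least 10 kb numbered 26 of 72 and 24 of 74, against 1.11% of all asynchronous and 1.14% of all mitotic peaks. They held 82.6% of the block's covered length in asynchronous cells and 76.1% in mitotic cells.

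The longest peak of the series lay at the distal end of the dense block in both lists. In the asynchronous list it ran from 92456154 to 92595749, 140 kb, with a fold enrichment of 13.3, the authors' ratio of pileup to local background. It was also the last peak of the block. The longest mitotic peak, 102 kb with a fold enrichment of 13.0, ran from 92441030 to 92542848. The mitotic list reached the same block end with a separate peak of 47.8 kb, from 92547904 to 92595670, that lay wholly under the asynchronous one. The dense block also held the third longest peak of each list, from 91995250 to 92052720 (57.5 kb) in the asynchronous and from 91978976 to 92063998 (85.0 kb) in the mitotic list.

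Where 1 long peak ended and the next began was less alike than the covered length. Of the 71 gaps between neighbouring asynchronous peaks of the dense block, 59 were at most 500 bp, with a median over all gaps of 156 bp. The mitotic list had 73 gaps, 61 of them at most 500 bp, with a median of 153 bp. Of these short gaps, 24 of 59 asynchronous ones (40.7%) met a gap between peaks of the mitotic list, and 22 of 61 mitotic ones (36.1%) met a gap of the asynchronous list. Most short gaps of either list were therefore covered in the other. The same shares were 51.2% and 58.0% in the short-arm-side block and 61.5% and 64.5% in the long-arm-side block. Gaps meet less often by themselves where less is uncovered, and the part of coverage in these shares was not tested. When peaks less than 500 bp apart were joined, the dense block fell into 13 runs in each list. The longest run spanned 520 kb in the asynchronous list, from 91779354 to 92298999, with 38 peaks and 6276 uncovered bp. In the mitotic list it spanned 479 kb, from 91779330 to 92258520, with 33 peaks and 5035 uncovered bp.

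The proximal end of the dense block was less even than the rest. Before 91800000, 60940 bp were covered by asynchronous and 57999 bp by mitotic peaks, and after it 786929 and 785328 bp. The peaks that started before it, 23 asynchronous and 18 mitotic, had a median fold enrichment of 8.95 and 10.1. The 49 and 56 peaks that started after it had medians of 12.9 and 12.8. The longest gaps of the block lay in the proximal part: 6405 bp from 91772949 in the asynchronous list and 15606 bp from 91730945 in the mitotic list. The asynchronous list covered 8467 bp of that mitotic gap, including its longest peak without a mitotic partner, 3847 bp from 91741552 to 91745398 with a fold enrichment of 9.64. The other unmatched asynchronous peak that was chosen by length measured 495 bp. The 2 mitotic peaks of the block without an asynchronous partner measured 842 and 447 bp and also lay there. This split at 91800000 was chosen after the coverage had been seen.

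Fold enrichment in the dense block was high, with a tail of low values. The median was 12.6 in the asynchronous list, above 95.7% of all peaks of that list, with quartiles of 10.2 and 13.1 and a range from 3.72 to 14.4. In the mitotic list it was 12.5, above 92.9% of that list, with quartiles of 11.6 and 13.0 and a range from 5.08 to 14.8. A fold enrichment of at least 6 with a −log10 q value of at least 5 was reached by 64 of 72 asynchronous and 70 of 74 mitotic peaks, where 73.7% and 77.6% of the whole lists reached it. The highest values belonged to an asynchronous peak of 2819 bp from 92331228 and a mitotic peak of 1520 bp from 92381002. In bins of 100 kb, coverage of the block from 91800000 to 92499999 lay between 96.5% and 99.6% in both lists.

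The small block, from 92869528 to 92903098, was an isolated island of 33.6 kb, with asynchronous peaks over 99.2% and mitotic peaks over 99.9% of its length. It held 3 asynchronous peaks. The first, from 92869528 to 92881372 (11.8 kb), had a fold enrichment of 12.4 and a pileup of 22.9, the authors' signal height in an unstated scaling. The second, from 92881552 to 92901398 (19.8 kb), had 12.5 and 23.7, and the third, from 92901502 to 92903097 (1596 bp), had 10.8 and 20.7. Gaps of 179 and 103 bp parted them. The mitotic list spanned the same island with 1 peak of 33.5 kb, a fold enrichment of 11.5 and a pileup of 24.5. All 3 asynchronous peaks met it, and the difference in the number of peaks came from the narrow gaps that the mitotic peak covers.

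Pileup ranked higher than fold enrichment in this island. The 3 asynchronous pileup values exceeded those of 99.8%, 99.9% and 99.2% of all asynchronous peaks, while their fold enrichment exceeded 94.7%, 95.1% and 85.8%. The mitotic pileup exceeded 99.8% of the mitotic list and the fold enrichment 88.0%. The nearest listed peaks on either side, across 274 kb and 2.96 Mb, showed the same order. The last asynchronous peak of the dense block ranked above 99.7% of the list by pileup and 97.7% by fold enrichment, and the first of the long-arm-side block above 99.6% and 98.8%. For the mitotic list these values were 99.8% and 91.8% on the near side and 99.4% and 93.5% on the far side. At the 231 kb stretch pileup ranks were lower and close to those of fold enrichment. The asynchronous peaks before and after it ranked above 62.5% and 69.4% of the list by pileup and above 65.2% and 71.4% by fold enrichment. The mitotic ones ranked above 69.1% and 78.6% by pileup and above 67.6% and 80.3% by fold enrichment.

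The long-arm-side block, from 95863405 to 96497722, resembled the dense block in coverage but was cut into shorter peaks. It held 129 asynchronous peaks covering 545 kb (86.0% of the block) and 119 mitotic peaks covering 569 kb (89.7%), a ratio of covered length of 1.04. Median width was 2540 bp and 2543 bp. The lists shared 527555 bp, which was 96.7% of the asynchronous length and 92.7% of the mitotic length. An overlapping peak in the other list was found for 121 of 129 peaks in asynchronous cells (93.8%, 88.1 to 97.3%) and 113 of 119 in mitotic cells (94.96%, 89.3 to 98.1%), against 81.9% and 79.2% over the whole lists, with the same limit that overlap rises with coverage. Median fold enrichment was 11.6 in both lists, above 91.0% of all asynchronous and 88.3% of all mitotic peaks. A fold enrichment of at least 6 with a −log10 q value of at least 5 was reached by 123 of 129 asynchronous peaks (95.3%) and 118 of 119 mitotic peaks (99.2%), against 73.7% and 77.6% of the whole lists.

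The median fold enrichment of peaks stepped down along this block, away from the empty stretch. Before 96200000 the median was 12.9 over 56 asynchronous and 12.5 over 52 mitotic peaks. From 96200000 to 96399999 it was 10.8 over 66 and 10.5 over 57 peaks, and from 96400000 it was 8.10 over 7 and 9.21 over 10 peaks. Mean fold enrichment over covered base pairs did not keep stepping down past 96200000. It was 13.2 asynchronous and 12.9 mitotic in the 100 kb bin from 96100000. In the bins from 96200000, 96300000 and 96400000 it was 11.1, 11.1 and 10.4 in the asynchronous list. The mitotic values there were 10.7, 11.5 and 11.2. The highest fold enrichment of the whole window lay shortly before the first step, 15.9 for an asynchronous peak of 3120 bp from 96144401 and 15.3 for a mitotic peak of 666 bp from 96167080. Median width went from 2994 bp before 96200000 to 2044 bp in the next stretch in the asynchronous list, and from 3160 to 2170 bp in the mitotic list. From 96400000 the median width was 1144 bp in the asynchronous list but 3591 bp in the mitotic list. These positions were chosen after the profile had been seen.

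Within the long-arm-side block, the lists parted most at its distal end. Beyond 96400000, asynchronous peaks covered 41321 bp and mitotic peaks 66770 bp, while before it the mitotic minus the asynchronous length of a 100 kb bin lay between -2066 and 737 bp. A mitotic peak of 18.4 kb with a fold enrichment of 12.6, from 96427826 to 96446198, met no asynchronous peak. It lay in the longest asynchronous gap of the block, 25027 bp from 96423698 to 96448724. This peak made up 44.3% of the 41508 bp that the block gained in the mitotic list alone, and without it the ratio of covered length was 1.01. Further asynchronous gaps of 14330 bp from 96457298 and 11975 bp from 96474525 held 3283 and 5987 bp of mitotic coverage. The next longest mitotic peak without a partner, 1544 bp from 96462803, lay in the first of these. In the other direction, the asynchronous list held 8 unmatched peaks with 4254 bp in all, led by 1194 bp from 96372380 with a fold enrichment of 13.3 and by the last peak of the block, 773 bp with 5.83. The longest mitotic gap of the block was 5988 bp.

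Long peaks of the block were also placed differently. The longest was 38.9 kb in both lists, but the asynchronous one ran from 95918501 to 95957371 and the mitotic one from 96093551 to 96132420. Each was covered almost fully in the other list, over 96.96% and 98.93%, by 4 peaks. Peaks of at least 10 kb numbered 10 asynchronous and 15 mitotic and held 35.6% and 46.0% of the covered length. With peaks less than 500 bp apart joined, the longest runs coincided, with 132 kb from 96093525 to 96225598 in the asynchronous and from 96093551 to 96225522 in the mitotic list.

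**Figure D2:**
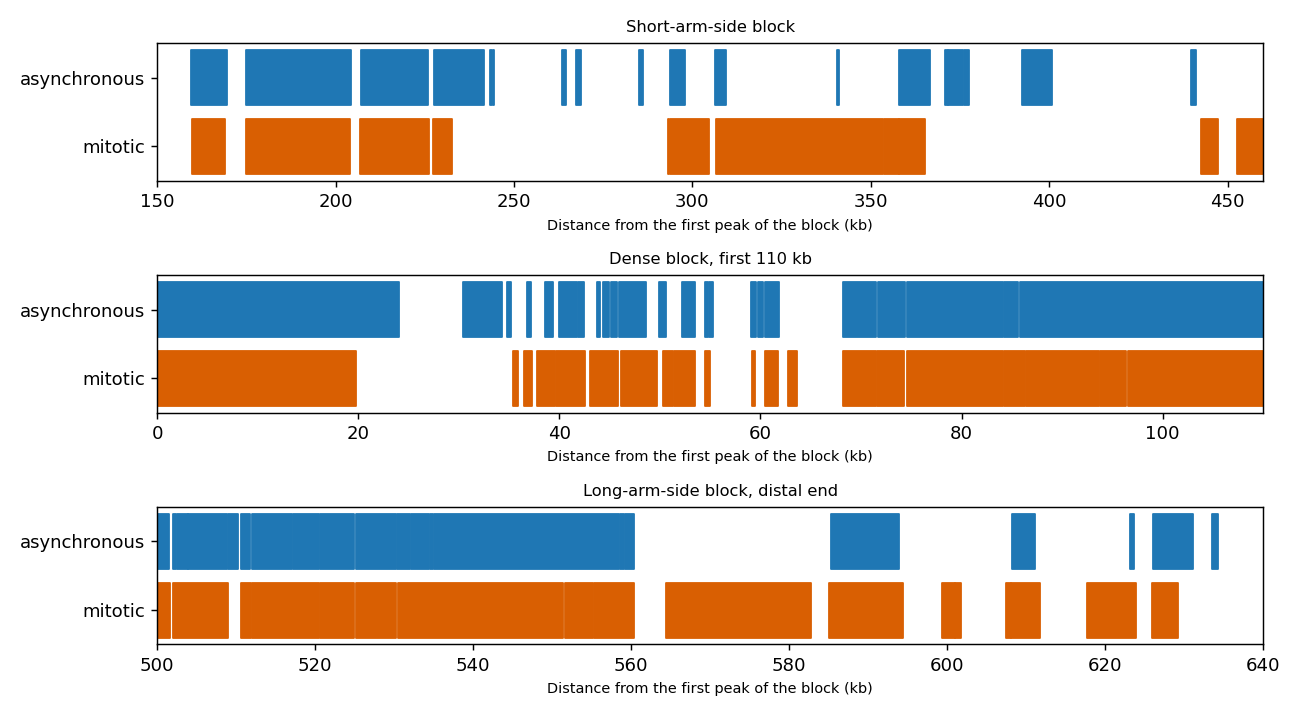
Listed peaks as bars for the asynchronous (upper row) and mitotic list (lower row) in 3 stretches, against the distance in kb from the first peak of the block: part of the short-arm-side block, the first 110 kb of the dense block and the distal end of the long-arm-side block. A mitotic peak of 46.9 kb in the top panel spans an asynchronous gap, and one of 18.4 kb in the bottom panel lies inside an asynchronous gap. The proximal end of the dense block is broken in both lists.

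The short-arm-side block, from 90340404 to 91480644, was a patchwork. It held more peaks than any other block, 249 of 453 asynchronous and 194 of 388 mitotic, which covered 49.5% and 57.7% of its length. Fewer mitotic peaks covered more DNA: the ratio was 0.779 for peaks (0.642 to 0.944) and 1.17 for covered length, 658 kb against 564 kb. Median width was 1223 bp for asynchronous and 1660 bp for mitotic peaks. Peaks of at least 10 kb numbered 10 and 11. Among peaks with a −log10 q value of 5 or more and a fold enrichment of 6 or more the numbers were nearly equal, 178 and 174, and the ratio of covered length was 1.27.

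Fold enrichment in this block was close to the middle of each list. The median was 7.14 in the asynchronous list, above 41.8% of all its peaks, and 8.46 in the mitotic list, above 56.7%. A fold enrichment of at least 6 with a −log10 q value of at least 5 was reached by 178 of 249 asynchronous peaks (71.5%) and 174 of 194 mitotic peaks (89.7%), against 73.7% and 77.6% of the whole lists. Ranks come from lists of different length and do not show a change. The highest values belonged to short peaks near the end that faces the dense block, 12.4 for an asynchronous peak of 619 bp from 91291952 and 14.6 for a mitotic peak of 969 bp from 91456855.

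Both lists covered the inner part of the short-arm-side block more fully than its outer part, apart from an island near the outer end. In bins of 100 kb, coverage was 13.3% asynchronous and 25.2% mitotic in the first bin, from 90300000, and 92.5% and 93.7% in the bin from 91300000. In the last bin, from 91400000, which the block fills only in part, it was 55.9% and 58.3%. The island lay in the bin from 90500000, with 73.0% and 62.9%. The next bin, from 90600000, had 12.7% asynchronous and 63.7% mitotic coverage. The island held the longest asynchronous peak of the block, 29.4 kb from 90515153 to 90544570 with a fold enrichment of 10.9. It also held the second longest mitotic peak, 29.0 kb from 90515351 to 90544322 with 12.8, which lay wholly under the asynchronous one. Next to it, peaks of 18.8 kb from 90547604 in the asynchronous list and 19.4 kb from 90547328 in the mitotic list overlapped each other.

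Placement differed more here than in the other blocks, in the block with the lowest coverage, 49.5% and 57.7% of its length. Overlap rises with coverage by itself, and the part of coverage in this difference was not tested. The lists shared 438882 bp, which was 77.8% of the asynchronous length but 66.7% of the mitotic length. A partner in the other list was found for 187 of 249 peaks in asynchronous cells (75.1%, 69.2 to 80.3%) and 165 of 194 in mitotic cells (85.1%, 79.2 to 89.8%), against 81.9% and 79.2% over the whole lists. With only peaks of fold enrichment of at least 6 and −log10 q of at least 5 in both lists, the order turned. A partner was then found for 81.5% of asynchronous and 77.6% of mitotic peaks of the block. Shares over the whole lists at that limit were not computed, so this order is not read as a trait of the block. The 62 unmatched asynchronous peaks had a median width of 645 bp and a median fold enrichment of 5.999, where the matched ones had 7.41. The 29 unmatched mitotic peaks had a median width of 821 bp and a fold enrichment of 7.29, against 8.59. The longest unmatched peaks were 8475 bp from 90732825 and 6041 bp from 91409504 in the asynchronous list, with fold enrichments of 9.12 and 7.47. In the mitotic list they were 5242 bp from 90397629 and 4947 bp from 91129000, with 10.4 and 8.04.

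A few stretches held much of this difference. Of the 12 bins of 100 kb, 8 had more covered length in the mitotic and 4 in the asynchronous list, and in 5 the lists differed by at least 10 kb. The bin from 90600000 differed most, where asynchronous peaks covered 12701 bp and mitotic peaks 63693 bp. It holds the longest mitotic peak of the block, 46.9 kb from 90647030 to 90693935 with a fold enrichment of 10.9. That peak met 2 asynchronous peaks over 3166 bp and covered the whole of an asynchronous gap of 31.2 kb. It held 19.98% of the 218952 bp covered in the mitotic list alone, and without it the ratio of covered length was 1.08. The bin from 90900000 followed, with 45916 and 69162 bp. In the other direction, the longest mitotic gap of the block, 77.2 kb from 90705720 to 90782929, held 6 asynchronous peaks over 17875 bp, and the next, 60.5 kb from 90573047, held 6 over 13303 bp. The longest asynchronous gap, 38.8 kb from 90741300 to 90780100, was empty in the mitotic list as well.

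Among all chromosomes, chromosome 3 ranked first or second in the length of its longest peaks and runs and in the share held by long peaks. Of all peaks of at least 10 kb, 48 of 354 asynchronous (13.6%) and 51 of 384 mitotic ones (13.3%) lay in the window, where 10.6% and 13.1% of the members were that long, against 1.11% and 1.14% of the whole lists. Chromosome 9 had more of them, 57 and 61, and chromosome 4 had 57 asynchronous and 48 mitotic ones. Over the whole of chromosome 3 such peaks held 54.3% of the covered length in asynchronous cells and 54.7% in mitotic cells, the second highest share of 23 chromosomes in both lists. Chromosome 21 was higher, with 65.8% and 64.6%, chromosome 9 was next below, with 43.3% and 46.3%, and the median chromosome had 4.91% and 6.21%. Chromosome 4, the other chromosome known for an interrupted array, had 32.3% and 23.3%. The longest run of peaks less than 500 bp apart, 520 and 479 kb, was longer than on any other chromosome in either list. The nearest were 350 kb on chromosome 21 in the asynchronous and 378 kb on chromosome 9 in the mitotic list, and the median chromosome had 95.6 and 97.4 kb. In covered length chromosome 3 ranked 12 of 23 in both lists, and in number of peaks 22. With 1 value per chromosome and list, these ranks are a description without a test.

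**Figure D3:**
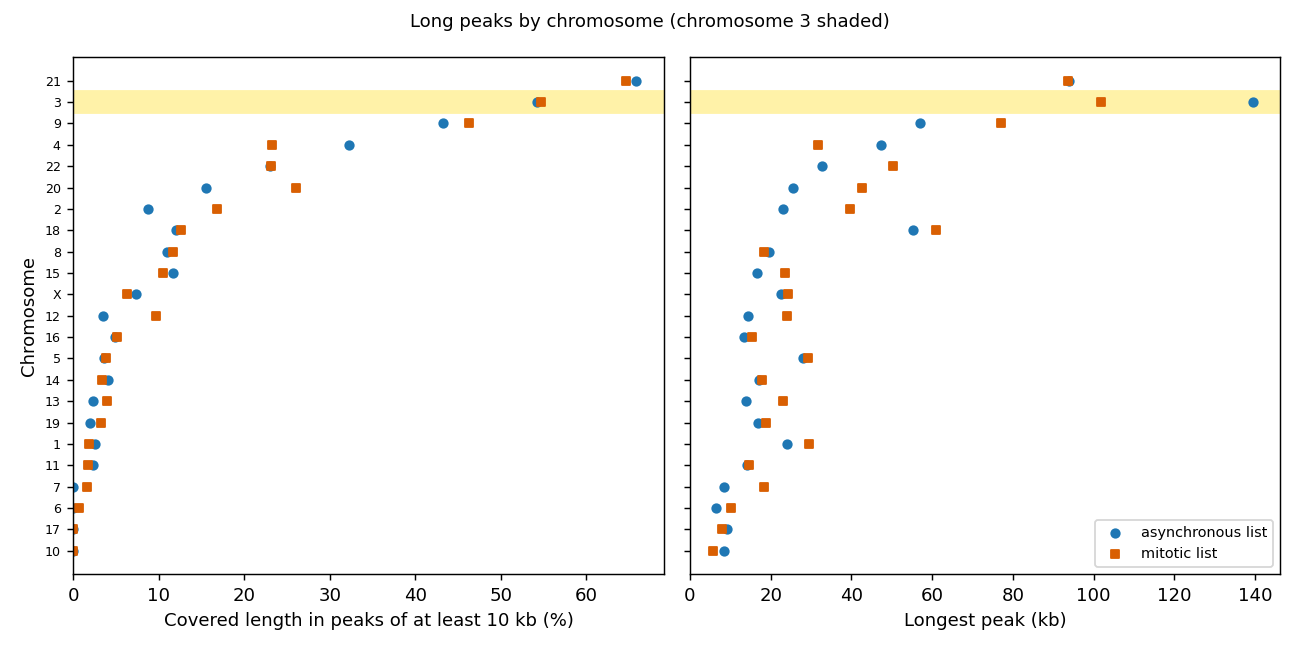
Share of covered length in peaks of at least 10 kb (left, in percent) and longest peak (right, in kb) for each of 23 chromosomes, with a point for the asynchronous and the mitotic list; chromosome 3 is shaded. Chromosome 3 is second by share in both lists, at 54.3% and 54.7%, and has the longest peak of both, 140 and 102 kb.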

How the data were processed

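The 8 libraries of the series were grouped by their titles. The authors deposited 1 peak list per condition, and the labels tie it to both the Odd and the Even library, merged. fastp, Bowtie2, MACS2 and build hs1 are named in the submitters' processing notes. No label or header states versions, settings, the control library or the rule that removed calls. The files have no header, so columns were identified by value ranges and by the layout of MACS2 broad peak output. The deposited pileup signal has an unstated scaling. The authors' fold enrichment (a ratio) was ranked within a list only. It and the −log10 q value deposited with it also set 1 limit that was applied to both lists. Positions count from 1.

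Covered length was the union of peaks. Overlap required 1 bp. Shares carry Clopper-Pearson intervals, ratios of counts exact conditional binomial intervals and calls per Mb exact Poisson intervals, all at 95%. Runs joined peaks less than 500 bp apart. For every block and list the text names the longest, highest, first and last peak, the longest gap and the 2 longest unmatched peaks, and others chosen after their values were seen. The members and lists were chosen with earlier results of these data known. Alternatives were a limit of fold enrichment of at least 6 with −log10 q of at least 5, assignment by midpoint, joined peaks, a reciprocal overlap of 50% and medians over base pairs. Tested on simulated data of 500 peaks, the overlap code returned 60% for a planted 60%. Software was scipy 1.17.1, pandas 2.3.3 and numpy 2.4.6 under Python 3.11.15, with matplotlib 3.10.9 for plots. The gene table at hand is of another build, so no gene is named.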

Additional observations from a re-analysis of the deposited data

How the results depend on the processing

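Over 82 values under 6 alternative settings, 60 were counted as unmoved and 22 as moved, and no covered length turned direction. Shares and medians were held against their counting interval, and numbers of peaks against a change of 1.5 times. Ratios of covered length have no counting interval of their own, so counting them as unmoved does not show that they were stable. In the short-arm-side block this ratio was 1.17 as reported. It was 1.27 under the limit on fold enrichment and −log10 q, and 1.08 without the longest mitotic peak. Assigning peaks by midpoint moved none. With peaks less than 500 bp apart joined, the numbers became 122 asynchronous and 82 mitotic in the short-arm-side block, 13 and 13 in the dense block, 20 and 26 in the long-arm-side block, where the mitotic number was then the higher, and 1 asynchronous in the small block. A reciprocal overlap of at least 50% lowered matched peaks to 31.3% and 40.2% in the short-arm-side, 51.4% and 50% in the dense and 55.0% and 59.7% in the long-arm-side block. With only peaks of fold enrichment of at least 6 and −log10 q of at least 5, matched asynchronous peaks became 81.5% and 97.6% in the short-arm-side and long-arm-side blocks, matched mitotic peaks 77.6% in the first, and the asynchronous median fold enrichment there 7.75. Medians over covered base pairs were higher: 8.33 and 9.91 in the short-arm-side, 12.6 and 12.5 in the long-arm-side and 13.0 for asynchronous peaks in the dense block. Matched shares over the whole lists were not computed under the reciprocal overlap or the limit on fold enrichment and −log10 q. The covered length without 1 mitotic peak, given with its block above, was chosen after seeing the data. Odd and Even libraries could not be left out in turn because each list merges them, so the spread between libraries and their depth are unknown.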

Other observations

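Distances between peak starts, and between peak ends, were counted inside the blocks, from 600 bp to below 12000 bp with a tolerance of 25 bp either side. Among peak ends of the long-arm-side block the most frequent distance was 2899 bp in the asynchronous list, found in 11 pairs of ends, where the median distance was found in 1. In the mitotic list it was 2725 bp, found in 7 pairs. Among peak starts of the same block the asynchronous list led with 625 bp and the mitotic list with 5399 bp, each in 8 pairs. The short-arm-side block, which holds the most peaks, led with 1749 bp in 11 pairs of asynchronous starts and 1680 bp in 13 pairs of ends. Its mitotic list led with 4278 bp in 11 pairs of starts and 7026 bp in 9 pairs of ends. There the median distance was found in 4 and 3 asynchronous pairs and in 2 and 2 mitotic pairs. In the dense block no distance was found in more than 4 pairs in either list. The leading distances differed between the lists and between starts and ends, and they were not tested.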
